A study of Homo sapiens with 36 samples.

Results

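The transcripts described here are those of the NRF2 pathway: NFE2L2, which encodes NRF2, its inhibitor KEAP1, the repressor BACH1, and 7 genes long known as NRF2 targets, HMOX1, NQO1, GCLM, GCLC, SLC7A11, OSGIN1 and ME1. These 10 genes were found by their Ensembl identifiers among the 61587 genes of a table of raw read counts over 36 RNA sequencing libraries. The cells were HEK293T, an established line from human embryonic kidney. In all of them the gene of TXNL1, a thioredoxin-like protein of the proteasome, had been knocked out (KO) with CRISPR, and KO clones had been grown from single sorted cells, without a statement of how many were used here. Lentiviral transduction then gave 4 lines, which all carry the KO: cells with an empty vector, and cells that re-express WT TXNL1, D162R R234D TXNL1, whose binding to the proteasome is impaired, or SxxS TXNL1, whose thioredoxin active site is mutated. Each line was labelled DMSO for its untreated cells, arsenite or H2O2, with 3 replicates in each of the 12 groups. Per the study's methods, cells received 100 µM arsenite or 600 µM H2O2 for 6 h. A line of the parental cells without the KO was not analysed here. The methods describe treatment in triplicate, and the labels do not tie replicates to separate passages or days, so p-values measure only the spread between these libraries.

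NRF2 is a transcription factor that is held at a low level in unstressed cells because KEAP1 presents it to the CUL3 ubiquitin ligase. Electrophiles and arsenic modify or engage cysteines of KEAP1, NRF2 then escapes degradation, and with a small MAF partner it binds antioxidant response elements in front of genes for glutathione synthesis, NADPH supply and detoxification. BACH1, a heme-sensing factor, occupies the same kind of element as a repressor, and HMOX1 is its best known target. Most of this control acts on the NRF2 protein, which RNA sequencing does not measure.

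The libraries held 42072410 to 174119002 counts each, and the median library held 66016833. TXNL1, the gene that was knocked out, had 31.7, 31.6 and 28.6 CPM (counts per 1000000 counts, on TMM-scaled library sizes) in the untreated vector libraries. In the untreated complemented lines it had 51.7 to 66.2 CPM, above every untreated vector library. This separates vector from complemented lines, and the variant that a library carries was not tested. Of 8 markers used for HEK293 cells, VIM, CDH2, KRT18 and INA were present and NEFM and PAX2 were near 0 in all libraries, with the summed level of the list between 590 and 839 CPM. The summed level of 3 leukocyte markers was 0.0605 to 0.258 CPM with DMSO and 0.892 to 1.58 CPM with arsenite, which came from CD14, while PTPRC and CD3E were at or near 0, at most 0.168 CPM and 0.0404 CPM. Hepatocyte and endothelial markers summed to at most 0.597 CPM under any treatment, and the fibroblast markers COL1A1, COL3A1 and DCN to between 18.2 and 41.3 CPM. A change in cell number and a change in RNA per cell cannot be told apart in such bulk samples.

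WT arsenite replicate 1 and WT H2O2 replicate 2 stood apart from the other libraries. The SD of their log2 level from the group median, over the 15674 genes with a mean of at least 1 CPM, was 0.55 and 0.62, against 0.08 to 0.19 in the other 34 libraries. In both of them BACH1, SLC7A11 and GCLC were low and KEAP1 was high next to their replicates. Values without these libraries are therefore given beside the main results that rest on them, and a WT value given alone includes them.

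Per kilobase of the gene length in the deposited table, KEAP1 was the most abundant of the 10 transcripts in untreated cells, at 27.2 ± 1.17 RPKM (mean ± SD, n = 12 libraries). HMOX1 at 15.2 ± 0.730 RPKM and ME1 at 14.8 ± 0.601 RPKM followed, and their ranges overlapped. GCLM at 9.30 ± 0.616 RPKM and NFE2L2 at 8.88 ± 0.215 RPKM also overlapped, as did GCLC at 5.75 ± 0.246 RPKM and BACH1 at 4.84 ± 0.399 RPKM. NQO1 at 2.04 ± 0.179 RPKM and SLC7A11 at 1.60 ± 0.205 RPKM were low and overlapped in range, and OSGIN1 was near the limit of measurement at 0.0667 ± 0.0188 RPKM, with 13 to 110 counts per library over all treatments. With arsenite the order changed at the top: HMOX1 led at 71.2 ± 6.40 RPKM, followed by NFE2L2 at 23.8 ± 2.89 RPKM and KEAP1 at 20.6 ± 2.48 RPKM, whose ranges overlapped. The place of NFE2L2 in both orders rests on its deposited length of 5671 bases, against 14975 exon bases in GENCODE. The longer length would lower its RPKM, and the orders were not tested on it.

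Promoter windows of 300 bases, from 250 bases before to 50 bases from the annotated start, were given by RefSeq on GRCh38.p14 for 8 of the 10 genes, in 12 windows. HMOX1 and SLC7A11 had none. 2 letter patterns were searched on both strands: the core of the antioxidant response element, TGACNNNGC, which 13.3% of all 34796 windows held, and the AP-1 element, TGANTCA, which 7.73% held. GCLM, ME1 and KEAP1 held the core, and ME1, OSGIN1 and BACH1 held the AP-1 element. The shares count windows, whereas the members are named as genes, some with several windows. Not every window of KEAP1 and BACH1 held a match. In ME1 the AP-1 letters lay inside a core. The windows of NFE2L2, NQO1 and GCLC held neither pattern, which says only that these letters are not in the windows. 4 windows are printed, the 3 with a core and that of OSGIN1, because these genes responded to arsenite in different ways. Capitals mark the matches, and a match is a description of the letters, not of a bound site.
GCLM, chr1:93909381-93909680, minus strand, core at 34 bases before the start: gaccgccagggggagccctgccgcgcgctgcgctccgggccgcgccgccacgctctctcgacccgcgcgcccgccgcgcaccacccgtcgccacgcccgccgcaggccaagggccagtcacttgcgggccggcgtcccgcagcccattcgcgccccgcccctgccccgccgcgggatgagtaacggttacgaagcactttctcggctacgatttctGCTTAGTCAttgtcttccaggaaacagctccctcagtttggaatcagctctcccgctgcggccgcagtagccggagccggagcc
ME1, chr6:83431002-83431301, minus strand, core and AP-1 element at 137 bases before the start and a core from base 12: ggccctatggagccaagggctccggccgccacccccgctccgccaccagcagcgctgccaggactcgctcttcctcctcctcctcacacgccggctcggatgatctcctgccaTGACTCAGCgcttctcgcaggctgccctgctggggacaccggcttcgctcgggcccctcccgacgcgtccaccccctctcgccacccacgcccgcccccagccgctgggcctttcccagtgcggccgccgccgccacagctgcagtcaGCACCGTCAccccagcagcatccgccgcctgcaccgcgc
KEAP1, chr19:10502722-10503021, minus strand, the second annotated start, cores at 54 and 31 bases before it: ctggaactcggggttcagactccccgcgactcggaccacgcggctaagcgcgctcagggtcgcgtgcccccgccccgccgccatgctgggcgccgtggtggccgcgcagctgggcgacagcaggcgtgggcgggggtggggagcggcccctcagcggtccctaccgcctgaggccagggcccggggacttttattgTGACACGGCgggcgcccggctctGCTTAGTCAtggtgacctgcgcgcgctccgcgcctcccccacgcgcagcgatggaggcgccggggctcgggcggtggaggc
OSGIN1, chr16:83952990-83953289, plus strand, AP-1 element at 97 bases before the start: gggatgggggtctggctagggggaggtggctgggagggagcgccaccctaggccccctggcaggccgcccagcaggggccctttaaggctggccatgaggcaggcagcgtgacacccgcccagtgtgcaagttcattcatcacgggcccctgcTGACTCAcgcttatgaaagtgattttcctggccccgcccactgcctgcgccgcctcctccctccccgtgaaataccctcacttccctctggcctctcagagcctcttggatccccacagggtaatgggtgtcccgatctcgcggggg

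In response to arsenite, the transcript of NRF2 itself rose in every line. NFE2L2 (ENSG00000116044, chr2:177218667-177392756 on GRCh38, minus strand) had 48.5 to 52.4 CPM in the 12 untreated libraries, with a median of 50.4. After arsenite the values were 136, 147 and 138 CPM in vector cells and 105, 124 and 115 CPM in WT cells. The D162R R234D libraries had 159, 156 and 151 CPM, and the SxxS libraries 130, 130 and 126 CPM. All 12 arsenite libraries thus lay above all 12 untreated libraries, and the libraries of the 4 lines did not overlap with each other, with WT lowest and D162R R234D highest. The rise averaged over the lines was 1.41 on the log2 scale (SE 0.03), 2.66-fold (edgeR's quasi-likelihood test, Benjamini-Hochberg adjusted p = 1.04e-26). The gene length in the deposited table was 5671 bases, against 14975 bases of exons in GENCODE 44, where 38.4% of the exon bases overlap 4 other genes. HNRNPA3 covers 23.4% of the exon bases on the opposite strand. HNRNPA3 was lower with arsenite, by 0.19 on the log2 scale (edgeR adjusted p = 1.08e-05), while ENSG00000213963 on the same strand, with 13.6% of the exon bases, rose by 0.85 to a mean of 2.28 CPM and ENSG00000222043, with 1.27%, by 1.47 to 2.67 CPM. The overlap in the gene model that was counted was not determined.

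KEAP1 and BACH1, which oppose NRF2 at the protein and at the DNA, were both lower with arsenite. KEAP1 (ENSG00000079999, chr19:10486125-10503558, minus strand), the adaptor that binds NRF2 to the ligase, ran from 92.4 CPM to 108 CPM in untreated cells with a median of 96.4 CPM. With arsenite it ran from 63.6 CPM to 99.4 CPM with a median of 73.3 CPM. The value of 99.4 CPM was that of WT arsenite replicate 1, and the other 11 arsenite libraries, at most 74.9 CPM, lay below every untreated library. KEAP1 fell by 0.40 on the log2 scale (SE 0.05, edgeR adjusted p = 8.35e-08), and by 0.46 (SE 0.03, adjusted p = 1.32e-18) without both outlying WT libraries. BACH1 (ENSG00000156273, chr21:29194071-29630751, plus strand) ran from 29.2 CPM to 41.2 CPM in untreated cells, with a median of 37.4 CPM. With arsenite it ran from 12.5 CPM to 30.0 CPM with a median of 28.6 CPM. Its lowest value was again that of WT arsenite replicate 1, and the groups overlapped because D162R R234D DMSO replicate 3 was low at 29.2 CPM. BACH1 fell by 0.45 (SE 0.12, edgeR adjusted p = 0.00192), and by 0.39 (SE 0.03, adjusted p = 3.42e-13) without both libraries.

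HMOX1 (ENSG00000100292, chr22:35380361-35394214, plus strand), the inducible heme oxygenase that opens heme to biliverdin, iron and carbon monoxide, rose most of the 10 genes. Untreated libraries had 31.4 to 37.7 CPM with a median of 34.9 CPM. With arsenite the vector libraries had 176, 161 and 169 CPM, and the WT libraries 177, 135 and 137 CPM. The D162R R234D libraries had 181, 172 and 172 CPM, and the SxxS libraries 166, 166 and 158 CPM. Every arsenite library was above every untreated library, and among WT cells the high value was that of the library that stood apart. The rise was 2.23 on the log2 scale (SE 0.06), 4.69-fold (edgeR adjusted p = 2.17e-24), and 2.18 (SE 0.02) without both outlying WT libraries.

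The glutathione genes split. GCLC (ENSG00000001084, chr6:53497341-53616970, minus strand), the catalytic subunit of glutamate-cysteine ligase, the rate-limiting enzyme of glutathione synthesis, had 45.9 to 53.3 CPM untreated with a median of 49.4 CPM. Arsenite libraries had 23.6 to 34.8 CPM with a median of 33.8 CPM, below every untreated library. It fell by 0.60 (SE 0.05, edgeR adjusted p = 6.30e-11), and by 0.58 (SE 0.02) without both outlying WT libraries. GCLM (ENSG00000023909, chr1:93885199-93909456, minus strand), the modifier subunit of the same enzyme and a gene whose promoter window holds the core printed above, had 42.8 to 55.3 CPM untreated with a median of 50.2 CPM. Arsenite libraries had 48.0 to 53.8 CPM with a median of 49.9 CPM, inside the untreated range. Its log2 fold change was -0.01 (SE 0.04, edgeR adjusted p = 0.900), with a 95% interval from -0.08 to 0.07. SLC7A11 (ENSG00000151012, chr4:138164097-138242349, minus strand), the transport subunit of the cystine-glutamate antiporter, had 10.7 to 19.1 CPM untreated with a median of 15.8 CPM. With arsenite it had 13.7 to 34.2 CPM with a median of 29.0 CPM, and without WT arsenite replicate 1, the lowest, the other 11 libraries had at least 22.9 CPM and lay above all untreated libraries. SLC7A11 rose by 0.84 (SE 0.12), 1.79-fold (edgeR adjusted p = 3.92e-07), and by 0.87 (SE 0.07) without both outlying WT libraries.

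SLC7A11 shares 8.97% of its exon bases with SLC7A11-AS1 on the opposite strand. The library kit was strand-specific, and whether the counting used strand is not given in the sources used here, so reads of the pair may not be told apart. SLC7A11-AS1 had a mean of 0.881 CPM with DMSO, 1.47 CPM with arsenite and 1.72 CPM with H2O2. GCLC shares 9.68% of its exon bases with 2 genes. GCLC-AS1 on the opposite strand, with 3.54%, had 4.91 CPM with DMSO and 3.59 CPM with arsenite. ENSG00000231683 on the same strand, with 6.14%, had a mean of at most 0.00413 CPM in any treatment. NQO1 shares 19.4% with ENSG00000261602, which had at most 0.443 CPM as a mean of any treatment. OSGIN1 shares 8.22% with MLYCD on its own strand, which fell by 0.80 with arsenite. BACH1 shares 4.53% with genes at a mean of at most 0.0916 CPM. KEAP1, HMOX1, GCLM and ME1 share none.

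Of the remaining targets, 2 rose with arsenite and 1 was not called. NQO1 (ENSG00000181019, chr16:69706996-69726668, minus strand), the quinone reductase that is often read as a reporter of NRF2, had 5.19 to 7.07 CPM untreated with a median of 6.02 CPM. After arsenite it had 5.26 to 7.55 CPM with a median of 6.03 CPM, and the groups overlapped throughout. Its log2 fold change was -0.01 (SE 0.05, edgeR adjusted p = 0.926), with a 95% interval from -0.10 to 0.09. ME1 (ENSG00000065833, chr6:83210402-83431051, minus strand), the cytosolic malic enzyme that makes NADPH, had 45.1 to 51.9 CPM untreated with a median of 49.9 CPM. With arsenite it had 51.6 to 63.6 CPM with a median of 59.5 CPM, and only WT arsenite replicate 1 lay within the untreated range. ME1 rose by 0.27 (SE 0.04, edgeR adjusted p = 1.28e-07), 1.20-fold. OSGIN1 (ENSG00000140961, chr16:83931311-83966332, plus strand), a growth inhibitor induced by oxidative stress, had 0.209 to 0.551 CPM untreated with a median of 0.354 CPM. Arsenite libraries had 0.337 to 0.821 CPM with a median of 0.646 CPM, and the groups overlapped. It rose by 0.78 (SE 0.16, edgeR adjusted p = 8.25e-05), on few counts.

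**Figure D1:**
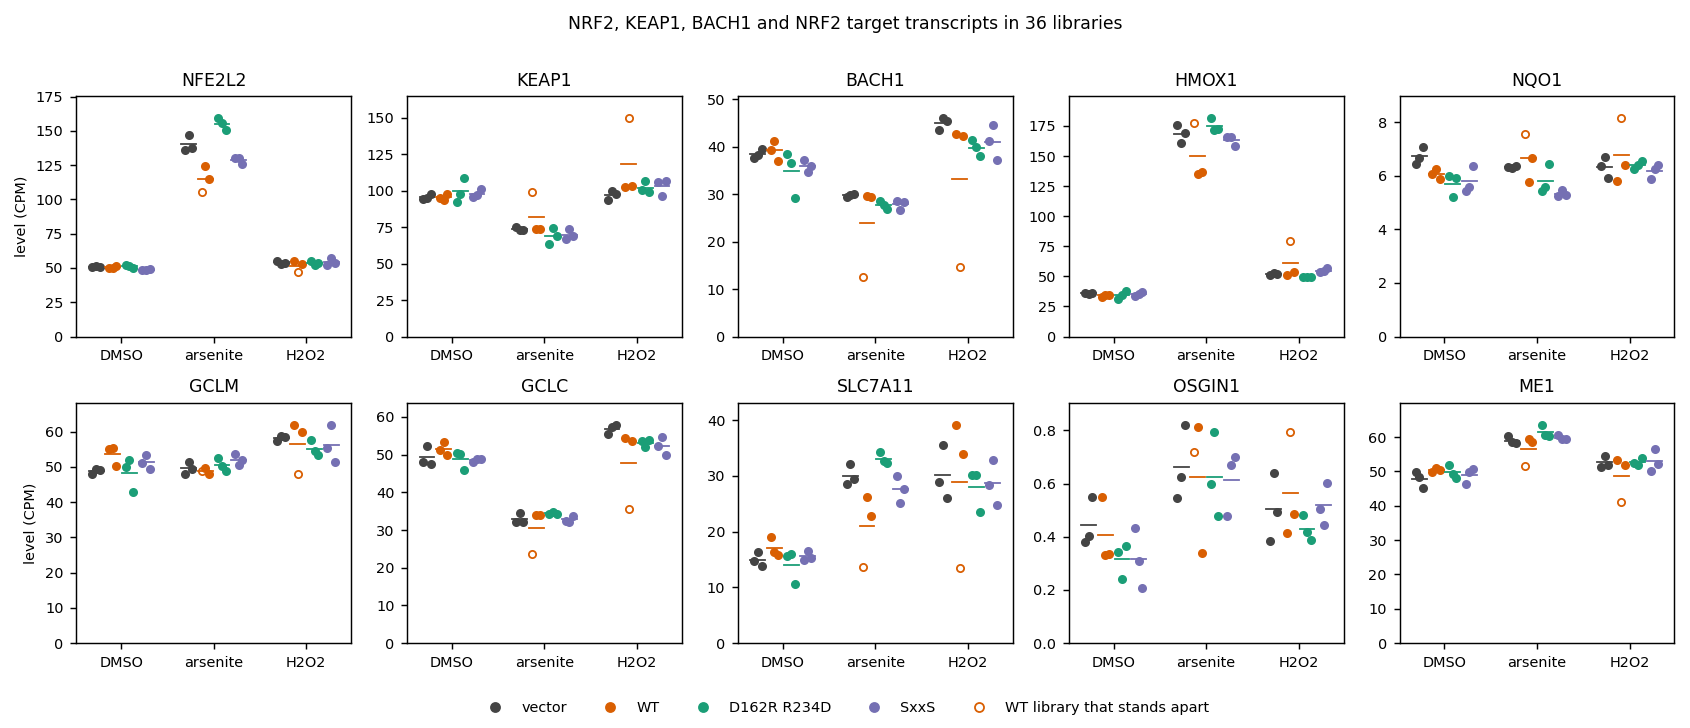
Level of each of the 10 transcripts in CPM on linear axes that start at 0, by treatment, with 1 point per library coloured by line and a bar at the mean of each group of 3. Open points are WT arsenite replicate 1 and WT H2O2 replicate 2. NFE2L2 and HMOX1 with arsenite sit above all untreated points, GCLC with arsenite sits below them, and GCLM and NQO1 with arsenite overlap them.

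Averaged over the lines, 5 of the 10 genes were called higher with arsenite and 3 lower at an adjusted p under 0.05. Over all 22486 genes tested, 37.4% were called higher and 31.5% lower, so that these counts were near the background. The median log2 fold change was 0.13 for the 10 genes and 0.06 for all tested genes. All 12 arsenite libraries lay above all 12 untreated libraries for 2 of the 10 genes, NFE2L2 and HMOX1, which 13.4% of all tested genes also did. They lay below for GCLC alone of the 10, and for 16.6% of all tested genes. Without both outlying WT libraries, 4 of the 10 lay above and 2 below, against 17.3% and 18.4% of all tested genes.

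With H2O2, 4 of these genes were called, all of them higher, and the clearest were HMOX1 and SLC7A11. HMOX1 had 49.1 to 79.7 CPM in the 12 H2O2 libraries with a median of 52.6 CPM, above every untreated library. The highest value was that of WT H2O2 replicate 2, and the next was 56.6 CPM. HMOX1 rose by 0.63 (SE 0.05), 1.55-fold (edgeR adjusted p = 1.21e-09), and by 0.57 (SE 0.02) without both outlying WT libraries. It was the only one of the 10 with all H2O2 libraries above all untreated ones, which held for 0.551% of all tested genes. SLC7A11 had 13.5 to 39.2 CPM with a median of 29.6 CPM, and only WT H2O2 replicate 2 was within the untreated range. It rose by 0.91 (SE 0.12), 1.88-fold (edgeR adjusted p = 3.00e-06), and by 0.99 (SE 0.07) without both libraries, when HMOX1 and SLC7A11 both lay above all untreated libraries, as did 1.13% of all tested genes.

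GCLM and NFE2L2 were also called higher with H2O2, by small amounts. GCLM had 48.0 to 61.9 CPM with a median of 57.5 CPM, overlapping the untreated range, and rose by 0.16 (SE 0.04, edgeR adjusted p = 0.00395), with its lowest value in WT H2O2 replicate 2. NFE2L2 had 47.4 to 57.6 CPM with a median of 53.6 CPM and rose by 0.09 (SE 0.03, edgeR adjusted p = 0.0363). That call was lost without any 1 of 16 libraries, with adjusted p up to 0.0794, and with total counts in place of TMM scaling, where the adjusted p was 0.181, with no filter on low counts (0.139) and with only these groups in the fit (0.0571). It held without both outlying WT libraries, at 0.10 (edgeR adjusted p = 0.000366). These 4 of 10 genes compare with 6.78% of all tested genes called higher, and 0 of 10 genes were called lower, against 5.30%, by edgeR or by DESeq2 or at an unadjusted p under 0.05.

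The other 6 genes were not called with H2O2. KEAP1 had 93.8 to 150 CPM with a median of 101 CPM and a log2 fold change of 0.11 (SE 0.05). BACH1 had 14.6 to 46.0 CPM with a median of 41.9 CPM and a log2 fold change of 0.09 (SE 0.12). GCLC had 35.6 to 57.9 CPM with a median of 53.8 CPM and a log2 fold change of 0.08 (SE 0.05). The high KEAP1 value and the low BACH1 and GCLC values were those of WT H2O2 replicate 2. ME1 had 41.2 to 56.6 CPM and a log2 fold change of 0.07 (SE 0.04), NQO1 had 5.80 to 8.15 CPM and 0.09 (SE 0.05), and OSGIN1 had 0.384 to 0.795 CPM and 0.46 (SE 0.16). OSGIN1 was called without WT DMSO replicate 1, SxxS DMSO replicate 1, WT H2O2 replicate 1 or WT arsenite replicate 3, at edgeR adjusted p = 0.0385 to 0.0438. Without both outlying WT libraries, 7 of the 10 genes were called higher, against 14.7% of all tested genes. The 3 added were BACH1 at 0.18 (SE 0.03, edgeR adjusted p = 6.99e-05), GCLC at 0.12 (SE 0.02, adjusted p = 7.20e-05) and ME1 at 0.09 (SE 0.02, adjusted p = 0.00204).

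Set against each other, arsenite and H2O2 differed in 7 of the 10 genes. 3 were higher with arsenite, against 37.3% of all tested genes, and 4 were lower, against 31.3%. HMOX1 was 3.03-fold higher with arsenite than with H2O2 (log2 difference 1.60, SE 0.05, edgeR adjusted p = 4.08e-21) and NFE2L2 was 2.50-fold higher (1.32, SE 0.03, adjusted p = 4.70e-26). ME1 was higher by 0.19 (SE 0.04, edgeR adjusted p = 1.95e-05). GCLC, BACH1, KEAP1 and GCLM were lower with arsenite, with log2 differences of -0.68, -0.54, -0.51 and -0.17 (edgeR adjusted p of at most 0.000284). SLC7A11 did not differ beyond its error, with a log2 difference of -0.07 (SE 0.12, edgeR adjusted p = 0.598) and a 95% interval from -0.30 to 0.16. OSGIN1 at 0.32 (SE 0.15, edgeR adjusted p = 0.0641) and NQO1 at -0.09 (SE 0.05, adjusted p = 0.110) were not called. OSGIN1 was called, at 0.36 to 0.40 (edgeR adjusted p = 0.0137 to 0.0438), without vector H2O2 replicate 2, WT H2O2 replicate 2, WT arsenite replicate 3, D162R R234D arsenite replicate 3 or SxxS arsenite replicate 1, and at 0.34 (adjusted p = 0.0457) without both outlying WT libraries. NQO1 was called at -0.12 without WT arsenite replicate 1 or WT H2O2 replicate 1 (adjusted p = 0.0364 and 0.0363), and also with DESeq2 size factors (0.0437), with total counts at -0.13 (0.00895) and with the DESeq2 test (0.04995).

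**Figure D2:**
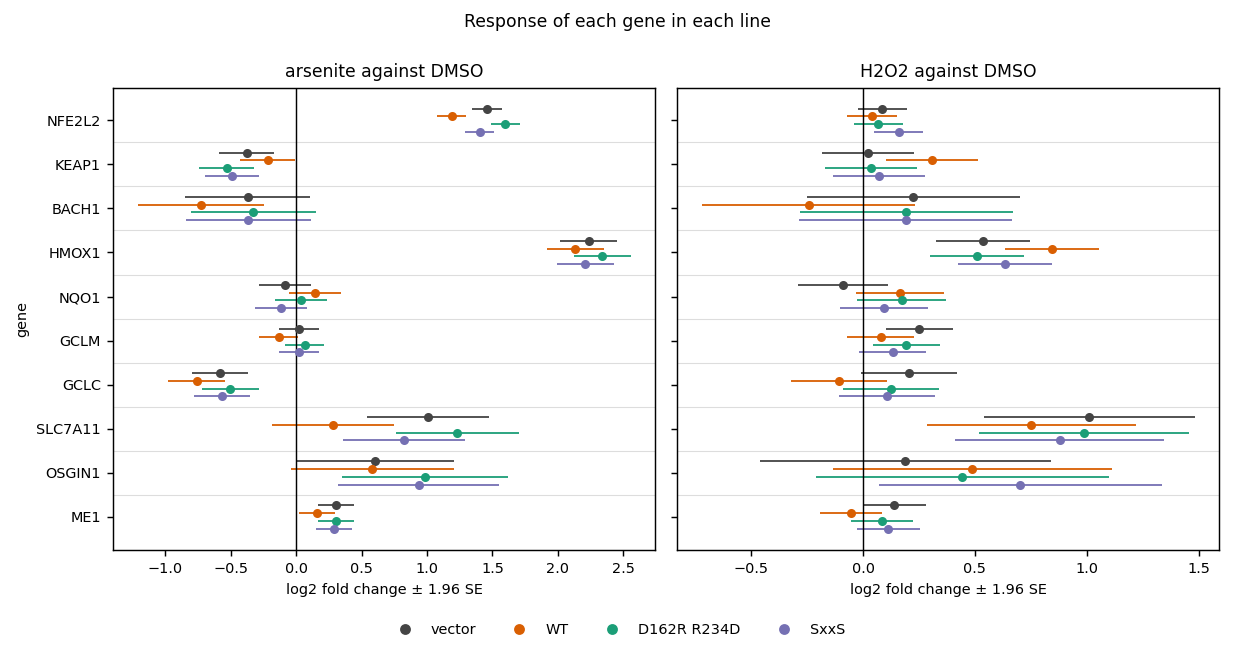
Log2 fold change of each transcript against DMSO in each line, with arsenite on the left and H2O2 on the right, on axes of different span. Points are edgeR estimates from 3 libraries against 3 and bars are 95% intervals from the SE. NFE2L2 and HMOX1 with arsenite lie to the right of 0 in all 4 lines and GCLC to the left, and the WT estimates of SLC7A11 and BACH1 with arsenite lie lowest.

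Within the lines, NFE2L2 rose with arsenite by 1.46 (vector), 1.19 (WT), 1.60 (D162R R234D) and 1.40 (SxxS), each with an SE of 0.06. HMOX1 rose by 2.24, 2.13, 2.34 and 2.21 in the same order, with an SE of 0.11 each. In WT cells without both outlying WT libraries, NFE2L2 was at 1.22 (SE 0.04) and HMOX1 at 1.97 (SE 0.05). These 2 of 10 genes were called higher in each of the 4 lines, as were 14.9% of all tested genes. GCLC was called lower in each, with log2 fold changes of -0.58, -0.76, -0.50 and -0.57, as were 16.1% of all tested genes. The WT value of GCLC was -0.63 (SE 0.05) without both outlying WT libraries. SLC7A11 rose by 1.01, 1.23 and 0.83 in the vector, D162R R234D and SxxS lines, and its value in WT cells was 0.28 (SE 0.24, edgeR adjusted p = 0.329). Without both outlying WT libraries the WT value was 0.49 (SE 0.15, edgeR adjusted p = 0.00789). KEAP1 fell in 3 lines and was -0.22 in WT cells (SE 0.11, edgeR adjusted p = 0.0826), or -0.40 without both libraries (adjusted p = 1.41e-07). BACH1 was called lower in WT cells alone, at -0.73 (SE 0.25, edgeR adjusted p = 0.0142), a call that was lost without WT arsenite replicate 1, at -0.41 (adjusted p = 0.139). Without both libraries BACH1 was called lower in all 4 lines, at -0.35 to -0.43.

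ME1 was called higher with arsenite in vector, D162R R234D and SxxS cells, at 0.30, 0.31 and 0.29, and its WT value of 0.16 (SE 0.07) had an edgeR adjusted p of 0.0588, or 0.00114 without both outlying WT libraries. OSGIN1 was called higher at 0.98 (SE 0.32) in the D162R R234D line, a call lost without DMSO or arsenite replicate 2 of that line. In SxxS cells it was at 0.93 (SE 0.31), a call lost without DMSO or arsenite replicate 2 or 3. GCLM in WT cells was at -0.13 (SE 0.08), was called lower at -0.16 (edgeR adjusted p = 0.0347) without both outlying WT libraries and at -0.23 (0.0447) with total counts, and was not called in the other lines. By line in the same order, 6, 4, 7 and 7 of the 10 genes were called with arsenite in either direction, against 43.4%, 53.6%, 44.0% and 43.6% of all tested genes. Without both outlying WT libraries 8 were called in WT cells, against 52.9%.

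With H2O2, HMOX1 was called in each line, at 0.54, 0.84, 0.51 and 0.64 (SE 0.11 each). Of all tested genes, 0.116% were called higher in each of the 4 lines. WT H2O2 replicate 2 was the highest, at 79.7 CPM. Without both outlying WT libraries the values were 0.53, 0.60, 0.51 and 0.64 (SE 0.05 each). The WT call was lost with only these groups in the fit (edgeR adjusted p = 0.436). The D162R R234D call was lost without D162R R234D DMSO replicate 1, the lowest untreated library at 31.4 CPM, where the value was 0.44 (edgeR adjusted p = 0.0943). SLC7A11 had 29.0, 35.6 and 26.0 CPM in the vector line and 39.2, 13.5 and 34.0 CPM in the WT line. The D162R R234D libraries had 30.2, 30.1 and 23.6 CPM, and the SxxS libraries 28.4, 32.9 and 24.9 CPM. Its log2 fold changes were 1.01, 0.75, 0.99 and 0.88 (SE 0.24 each), called in the first 3 of these lines (edgeR adjusted p = 0.0266, 0.0477 and 0.0325) and not in SxxS cells (0.0682). The vector and D162R R234D calls were each lost without any 1 of 5 libraries of that line's DMSO and H2O2 groups, the WT call without any 1 of 31 of the 36 libraries, and the SxxS value was called without any 1 of 3 WT libraries. Without both outlying WT libraries SLC7A11 was called in all 4 lines, at 1.00, 1.09, 0.98 and 0.87 (SE 0.13 to 0.14, edgeR adjusted p of at most 0.000136). In the main fit with all libraries no other of the 10 genes was called in any line. These counts of 2, 2, 2 and 1 genes compare with 1.35%, 8.06%, 1.03% and 1.02% of all tested genes called. KEAP1 in WT cells was called higher with total counts, at 0.26 (edgeR adjusted p = 0.0480), where SLC7A11 was not (0.0825). The DESeq2 test also called KEAP1 there, at 0.30 (adjusted p = 0.0475). Without both outlying WT libraries KEAP1 in WT cells was at 0.10 (edgeR adjusted p = 0.312).

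The complemented lines were then compared with vector cells under each treatment. Of 90 such comparisons over the 10 genes, 1 was called and 10 had an unadjusted p under 0.05. Over all tested genes, 1.59% were called in at least 1 of the 9 comparisons. The call was NFE2L2 in arsenite-treated WT cells, with 105, 124 and 115 CPM against 136, 147 and 138 CPM in vector cells, a log2 difference of -0.29 (SE 0.06, edgeR adjusted p = 0.00682). Of all tested genes, 1.33% were called in that comparison. The call was lost without WT arsenite replicate 1 (-0.23, edgeR adjusted p = 0.0581), without vector arsenite replicate 2 (-0.25, 0.0643), with only these groups in the fit (0.687) and with no filter on low counts (0.104). Without both outlying WT libraries NFE2L2 was at -0.24 (SE 0.04, edgeR adjusted p = 0.00142) and HMOX1 at -0.32 (SE 0.05, adjusted p = 0.000196), with 2.96% of all tested genes called. With all libraries HMOX1 was at -0.17 (SE 0.11, edgeR adjusted p = 0.346), since WT arsenite replicate 1 had 177 CPM where the other WT libraries had 135 and 137 CPM. In untreated cells the largest differences of a line from vector among the 10 genes were -0.48 and 0.19 on the log2 scale, and none was called.

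The difference of the arsenite response between the 4 lines was tested as an interaction. With edgeR, 0 of the 10 genes passed, as did 0% of all tested genes, among which 1432 had an unadjusted p under 0.05. NFE2L2 had an unadjusted p of 0.0002 and an edgeR adjusted p of 0.493. DESeq2 called 18 genes, and NFE2L2 was among them (adjusted p = 0.00539). Without both outlying WT libraries, edgeR called 0.205% of all tested genes, NFE2L2 among them (adjusted p = 0.0102), and HMOX1 had an adjusted p of 0.0503. The separation of all 4 lines by NFE2L2 level with arsenite, described above and noticed after the values were seen, held for 0.129% of all tested genes and for none of the other 9. For the H2O2 response, edgeR called 0.685% of all tested genes and DESeq2 called 320 genes, and 0 of the 10 were called by either or had an unadjusted p under 0.05.

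Within a library, the balance of NFE2L2 and KEAP1 moved towards NFE2L2 with arsenite. The log2 CPM of NFE2L2 minus that of KEAP1 ran from -1.11 to -0.82 in untreated libraries with a median of -0.94, so KEAP1 counts were the higher in all 12. With arsenite it ran from 0.08 to 1.32 with a median of 0.90, and NFE2L2 counts were the higher in all 12. Counts are not scaled to gene length, so the side of 0 depends on the scale. Per kilobase of the deposited length, NFE2L2 was below KEAP1 in all 12 untreated libraries. It was above KEAP1 in 10 of 12 arsenite libraries. The exceptions were WT arsenite replicates 1 and 3, at log2 RPKM ratios of -0.58 and -0.02. This side also depends on the length used for NFE2L2, 5671 bases as deposited against 14975 exon bases in GENCODE. KEAP1 had 3573 bases in both. The longer length would lower every NFE2L2 value per kilobase, and the order against KEAP1 was not tested on it. A change of length shifts all libraries alike. The mean difference within lines was 1.82 (permutation test within lines, two-sided, 100000 resamples, p = 1e-05, the smallest these resamples can give), a 3.53-fold change of the ratio. With H2O2 the balance ran from -1.66 to -0.74 with a mean difference of -0.02 (permutation p = 0.903), and the lowest value was that of WT H2O2 replicate 2.

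The balance of the glutamate-cysteine ligase subunits also moved. GCLM minus GCLC, in log2 CPM, ran from -0.10 to 0.12 in untreated libraries with a median of 0.03. With arsenite it ran from 0.50 to 1.04 with a median of 0.60, above every untreated library, with a mean difference of 0.60 (permutation test, two-sided, p = 1e-05), a 1.52-fold change of the ratio. The highest value, 1.04, was that of WT arsenite replicate 1. With H2O2 it ran from -0.01 to 0.43 with a mean difference of 0.09 (permutation p = 0.00864), the highest again in the WT library that stood apart, and without both outlying WT libraries the difference was 0.06.

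**Figure D3:**
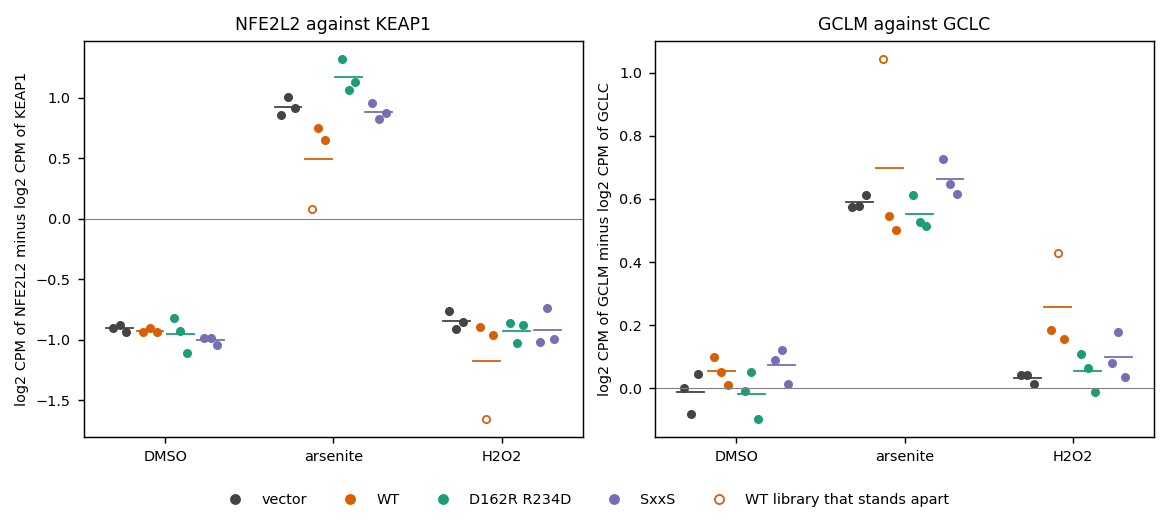
Difference of log2 CPM between NFE2L2 and KEAP1 on the left and between GCLM and GCLC on the right, 1 point per library by treatment and line, with bars at the mean of each group and a line at 0. With arsenite, NFE2L2 against KEAP1 moves from below 0 to above 0 in all 12 libraries on this scale, which does not correct for gene length, and GCLM against GCLC lies between 0.50 and 1.04.

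Around these genes, the partners and regulators of NRF2 moved in both directions with arsenite. Of 11 tested, 7 were called higher and 3 lower, against 37.4% and 31.5% of all tested genes, with a median log2 fold change of 0.18 against 0.06. MAFF, a small MAF protein that pairs with NRF2, went from 1.18 ± 0.18 CPM with DMSO to 16.3 ± 1.57 CPM with arsenite (SD, n = 12), a log2 fold change of 3.78 (SE 0.09), and SQSTM1, the autophagy receptor that binds KEAP1, rose by 0.82 (SE 0.04). CUL3, the ligase scaffold, rose by 0.21, MAFG by 0.19 and BACH2 by 0.47. The paralogs NFE2L1 and NFE2L3 fell by 1.01 and 0.83, and BTRC, an alternative adaptor for NRF2 turnover, fell by 0.53. With H2O2, 3 of the 11 were called higher, SQSTM1 at 0.23, NFE2L1 at 0.16 and MAFG at 0.15, against 6.78% of all tested genes.

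Of 31 other NRF2 targets listed, 23 had enough counts to be tested, and the rest (GPX2, ABCC3, AKR1B10, AKR1C1, AKR1C2, AKR1C3, CYP4F11 and NR0B1) were under the filter. With arsenite 11 were called higher and 8 lower, near the background of 37.4% and 31.5% of all tested genes, with a median of 0.13 against 0.06. The risers included the efflux pump ABCC2 at 1.86 (SE 0.16), the carbonyl reductase CBR3 at 1.14 (SE 0.17), PIR at 0.62 and TRIM16L at 0.51. SRXN1, which repairs overoxidized peroxiredoxins, fell by 1.23 (SE 0.03) from 40.1 ± 1.98 CPM to 17.1 ± 1.15 CPM, UGDH fell by 0.58, IDH1 by 0.55, and TXNRD1, the cytosolic thioredoxin reductase, by 0.43 (SE 0.07). With H2O2, CBR3 at 0.58 and TRIM16L at 0.16 were called higher and IDH1 at -0.12 lower, against 6.78% and 5.30% of all tested genes.

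Among 7 genes of glutathione metabolism, 6 were called higher with arsenite and GSR, glutathione reductase, was called lower at -0.21, against 37.4% and 31.5% of all tested genes, with a median of 0.44. GSR was also counted among the other NRF2 targets above. SLC3A2, the heavy chain that carries SLC7A11 to the membrane, went from 168 ± 8.89 CPM to 797 ± 64.8 CPM (SD, n = 12), a rise of 2.25 (SE 0.05). CHAC1, which degrades glutathione, rose by 2.32 (SE 0.08), GGT1 by 1.41 (SE 0.09) and GSS, the second enzyme of glutathione synthesis, by 0.44 (SE 0.04). With H2O2, CHAC1 at 0.92 (SE 0.09) and SLC3A2 at 0.15 were called higher, against 6.78% of all tested genes. Of 11 genes of heme and iron handling, 4 were called higher with arsenite and 5 lower, against 37.4% and 31.5% of all tested genes, with a median of 0.13. ALAS1, which starts heme synthesis, rose by 0.89 (SE 0.03) and the ferritin light chain FTL by 0.55, while the iron exporter SLC40A1 fell by 2.53 (SE 0.11) and the heme transporter SLC48A1 by 0.95. With H2O2, TFRC and FECH were called lower, at -0.29 and -0.14, against 5.30% of all tested genes.

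Of the 7 tested paralogs of these genes, 2 were called higher with arsenite and 4 lower, against 37.4% and 31.5% of all tested genes, with a median of -0.19. Among them NFE2L1, NFE2L3, BACH2 and HMOX2 were already counted in the lists above. HMOX2, the constitutive heme oxygenase, was lower by 0.24 on the log2 scale (SE 0.06) where HMOX1 rose, NQO2 rose by 0.20 (SE 0.07), OSGIN2 fell by 0.19 (SE 0.05), and ME2, a mitochondrial malic enzyme, was not called. With H2O2, 1 of the 7, NFE2L1, was called higher, against 6.78% of all tested genes.

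**Figure D4:**
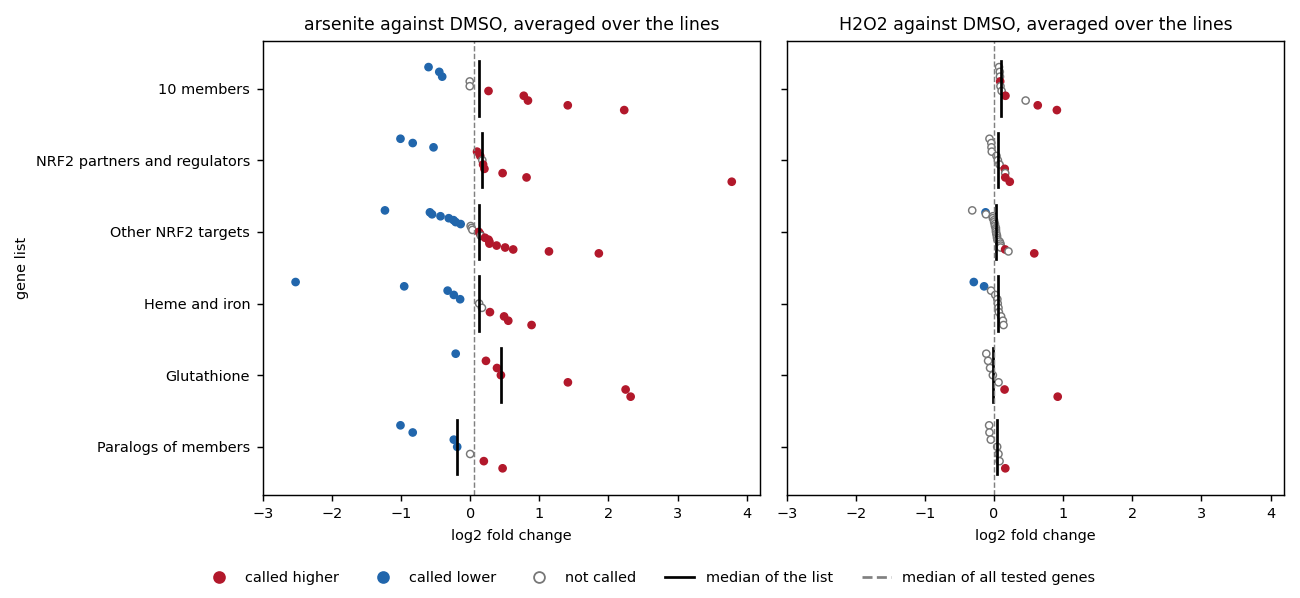
Log2 fold change against DMSO averaged over the lines, with 1 point per tested gene in each list, arsenite on the left and H2O2 on the right. Red points were called higher, blue points lower and open points not called, the bars are list medians and the dashed line is the median of all tested genes. With arsenite every list holds both red and blue points, and with H2O2 most points are open.

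3 of the genes stood for distinct patterns: HMOX1 was called higher with both oxidants and more so with arsenite, SLC7A11 was called higher with both, and GCLM was called with H2O2. For each, the nearest genes were taken by Euclidean distance over the 8 log2 fold changes of the lines, among 15674 genes with a mean of at least 1 CPM, as a description with no test. Nearest to HMOX1 was FOSL1 at a distance of 0.35, with averaged changes of 2.14 for arsenite and 0.67 for H2O2, then STYK1 and ZFP36. Nearest to SLC7A11 were ZBTB16, CDKN1A and OSBPL10, at 0.54 to 0.74, and nearest to GCLM were SRC, FGD1 and ZNF740, at 0.13 to 0.15. The fold changes of the lines share the outlying WT libraries, which enter every distance.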

How the data were processed

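Per the study's methods, reads were aligned by qAlign (QuasR) on GRCh38, and the authors deposited raw read counts per gene for each library, not normalized or pooled. The annotation, the use of strand and the treatment of pairs are not given in the sources used here. The deposited gene length was used for RPKM. Identifiers were matched to GENCODE 44 (61415 of 61587). Genes with at least 10 counts over the 3 untreated vector libraries (22486 genes, all 10 described here included) were fitted with edgeR 4.0.16 in R 4.3.3, with TMM scaling, 1 mean for each of 12 groups over all 36 libraries, robust quasi-likelihood dispersions and Benjamini-Hochberg adjustment over all tested genes. Genes were called at an adjusted p under 0.05. Averages weight the 4 lines equally. Levels are CPM on TMM-scaled totals. Log2 CPM used a prior count of 2, and balances were tested by permuting labels within lines. DESeq2 1.42.0 and other settings were alternatives. The 10 genes, the lists and the 3 genes whose nearest genes are given were chosen with earlier results of these data known. Replicate pairs all differed beyond sampling noise (chi-square per degree of freedom 3.18 to 312), so none was counted as a duplicate. On simulated counts for the arsenite comparison over 22486 genes, 200 of 200 genes changed by a log2 fold of 1 were recovered, with 9 false calls among 209. The changed genes were drawn from those above 1 CPM in untreated vector cells, and no library was made to stand apart. The simulation therefore does not cover OSGIN1, smaller changes, or data in which most genes were called, as here with arsenite.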

Additional observations from a re-analysis of the deposited data

How the results depend on the processing

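Each library was left out in turn, and 9 other settings were tried for the fits. The counts of genes called with arsenite averaged over the lines, 5 higher and 3 lower, were the same under every setting. Precision is limited by 3 libraries per group and, for OSGIN1, by depth. With both outlying WT libraries left out, 7 genes instead of 4 were higher with H2O2 averaged over the lines. This compares with 14.7% instead of 6.78% of all tested genes. In WT cells 8 instead of 4 were called with arsenite, against 11902 instead of 12060 of all 22486 tested genes. With H2O2, 5 instead of 2 were called in vector cells, 3 instead of 2 in D162R R234D cells and 3 instead of 1 in SxxS cells. Over all tested genes the H2O2 calls in these lines rose from 303 to 2219, from 231 to 2328 and from 229 to 1475. Then 2 instead of 1 comparisons with vector were called. The arsenite response of 1 gene instead of 0 differed between lines, as it did with the DESeq2 test, against 46 instead of 0 of all tested genes. With no filter the H2O2 calls were 1, 1 and 1 in vector, WT and D162R R234D cells and 0 comparisons with vector were called. With only the groups compared, 5, 0 and 4 genes were called with H2O2 in vector, WT and SxxS cells and again 0 comparisons with vector. With total counts 1 was called with H2O2 in D162R R234D cells, and with the DESeq2 test 2 were called in SxxS cells.

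Leaving out a library gave 1 to 3, 1 to 3, 0 to 2 and 1 to 2 H2O2 calls in vector, WT, D162R R234D and SxxS cells, and 0 to 3 calls of a line against vector. These ranges likewise have no share of all tested genes beside them. The H2O2 balance of NFE2L2 and KEAP1 ranged from -0.0506 to 0.0445 and was 0.0445 without both outlying WT libraries. Of the other signs that turned, BACH1, GCLC and ME1 with H2O2 in WT cells turned without WT H2O2 replicate 2, from -0.24, -0.11 and -0.05, and OSGIN1 with H2O2 in vector cells turned without vector H2O2 replicate 2, from 0.19. GCLM with arsenite was -0.0041 (DESeq2 size factors) and -0.0036 (DESeq2 test) in vector cells, and -0.00044, -0.018, -0.00066, -0.014 and -0.0028 in SxxS cells with DESeq2 size factors, total counts, the DESeq2 test, no filter and only the groups compared. NQO1 with arsenite was -0.000901 in D162R R234D cells with no filter. Without a library, GCLM with arsenite ranged from -0.0416 to 0.00757 averaged, -0.00638 to 0.0441 in vector, -0.0252 to 0.119 in D162R R234D and -0.00498 to 0.0513 in SxxS cells, and NQO1 from -0.0310 to 0.0156 averaged and -0.0460 to 0.0787 in D162R R234D cells. With H2O2, OSGIN1 ranged from -0.00863 to 0.368 in vector and KEAP1 from -0.0149 to 0.101 in D162R R234D cells, and in WT cells NFE2L2 from -0.00578 to 0.0998, BACH1 from -0.464 to 0.116, GCLC from -0.207 to 0.0690 and ME1 from -0.122 to 0.0558. In WT cells with H2O2, BACH1 was 0.11, GCLC 0.064 and ME1 0.050 without both outlying WT libraries.

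The replicate numbers showed no pairing of the samples on average. Deviations of same-numbered libraries correlated at a median of 0.016 (from -0.85 to 0.78), against -0.0076 (from -0.85 to 0.91) for other pairs. Whether same-numbered libraries shared a passage or day cannot be told from these values. With the replicate number as a block, 1 instead of 2 genes were called with H2O2 in WT cells, where SLC7A11 was at 0.76 with an adjusted p of 0.0556, and no other call of the 10 genes changed.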
